A study of Xenopus tropicalis with 52 samples.

Results

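The oxidative phosphorylation genes of the *Xenopus tropicalis* embryo were followed as all nuclear count rows whose symbol begins with nduf, sdha to sdhd, uqcr, cox4 to cox8 or atp5, or is cyc1. The rule found 81 rows among the 21750 gene rows of the Series 1 and 2 table, and 79 of them were among the 20193 gene rows of the Series 3 table. By name, 73 rows were subunits and 5 were assembly factors (ndufaf1 to ndufaf4 and sdhaf2). A further 2, atp5s (RefSeq symbol dmac2l) and atp5sl, bore an ATP synthase symbol but were not counted as subunits. The remaining 1, cox4nb, was none of these. The last is named for the gene next to it and codes for a protein of the endoplasmic reticulum membrane. It was kept because the rule takes it.

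Oxidative phosphorylation takes place at the mitochondrial inner membrane. Complexes I and II pass electrons from NADH and succinate to ubiquinone, complex III passes them to cytochrome c, and complex IV (cytochrome oxidase) passes them to oxygen. Complexes I, III and IV pump protons, and the ATP synthase lets the protons back and makes ATP. Most subunits are coded in the nucleus and only a few of the catalytic ones in mitochondrial DNA. An egg carries a large maternal store of mitochondria and of mRNA, and translation of a stored mRNA is often set by the length of its polyA tail.

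Untreated whole embryos were cultured at 23°C and collected in pools at half-hour steps, each series from a single fertilisation. Series 1 had 7 polyA+ libraries from 0 to 3.0 hours post-fertilisation (hpf) and Series 2 had 17, the first at 2.5 hpf and the last at 9.5 hpf, with pairs of libraries at 4.5 and 6.5 hpf. Series 3, from a different frog colony, with smaller pools and another library kit, sequencer and read length, had 19 polyA+ libraries from 0 to 9.0 hpf. It also had 9 libraries of total RNA depleted of ribosomal RNA (Ribo-Zero) at the whole hours from 0 to 8 hpf, made from the same RNA. The mid-blastula transition, when transcription from the zygotic genome begins in earnest, lay just before 5.0 hpf in Series 1 and 2 and just after 6.0 hpf in the slower Series 3. As every series is 1 clutch, no p-value here measures the spread between clutches. For a slope it measures the spread of libraries around a line in time. For a contrast of library types, series or time points it measures the spread of libraries within a group. Except at 6.5 against 4.5 hpf, libraries of different hours stand there as replicates. In pooled whole embryos, fewer cells of a type and less RNA per cell cannot be told apart.

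Library totals ran from 19925593 to 24659133 counts in Series 1, and the median was 30072123 in Series 2. The Series 3 libraries were shallower, down to 4539916 counts in polyA+ and 5326857 in Ribo-Zero, and the Ribo-Zero totals were lowest at 7 and 8 hpf. The deposited normalised read count scales each library to 25000000 counts without ribosomal RNA, so that 3 counts correspond to between 5.88 and 19.5 normalised reads in a Ribo-Zero library. A mitochondrial row, left out of the fits, was far higher in the Ribo-Zero libraries of 2, 3 and 8 hpf than in the other 6. The zygotic genes eomes and mixer had at most 4 counts at 0 hpf in every library type. At 6.0 hpf in Series 2 they had 6819 and 2561 counts, while in Series 3 polyA+ libraries they had 187 and 21 counts. Both therefore appeared later in Series 3. Between 73 and 80 of the rows had a count in any one library. The rows cox4i2, cox7a1 and cox8a had at most 19 counts over all libraries of a table and are not described further.

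Oxidative phosphorylation rows took up more of the polyA+ counts late than early, and less of the Ribo-Zero counts. In Series 1 they made up 0.252% of gene counts at 0 hpf, 0.206% at 0.5 hpf and 0.339% at 3.0 hpf. In Series 2 the share lay between 0.304% at 2.5 hpf and 0.554% at 8.5 hpf. In the polyA+ libraries of Series 3 it was 0.295% at 0 hpf, 0.377% at 3.0 hpf and 0.521% at 6.5 hpf, and 0.437% at 9.0 hpf. The Ribo-Zero share from the same RNA was 0.334% at 0 hpf (95% Wilson interval 0.330 to 0.337), 0.247% at 3 hpf, 0.216% at 5 hpf and 0.168% at 8 hpf (0.164 to 0.173). The Ribo-Zero share was lower at each hour than at the hour before, though the intervals of 1 and 2, of 3 and 4 and of 5 and 6 hpf overlapped. The intervals cover counting error only.

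**Figure D1:**
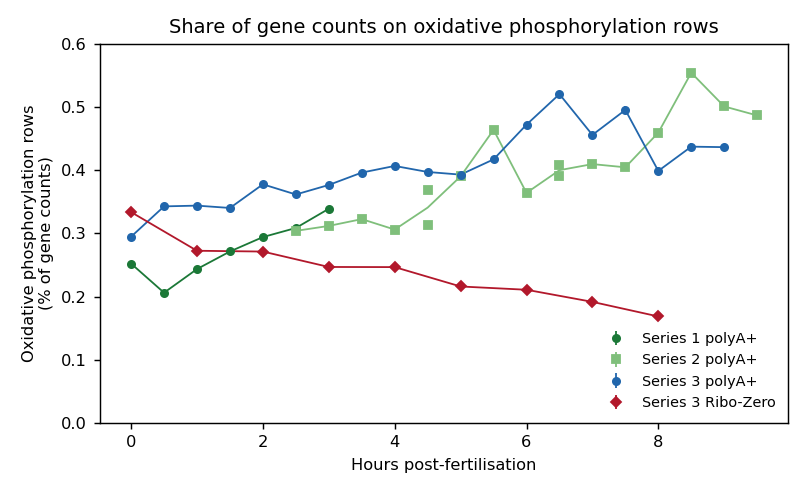
Share of gene counts on the oxidative phosphorylation rows (y axis, %) against hours post-fertilisation (x axis). Each point is 1 library with its 95% Wilson interval and lines join the mean at each time. The 9 Ribo-Zero points run from 0.334% down to 0.168%, and the 19 Series 3 polyA+ points lie between 0.295% and 0.521%.

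All complexes shared the lower Ribo-Zero share, in unequal measure. Between 0 and 8 hpf the summed Ribo-Zero share of the complex IV subunits went from 0.0501% to 0.0176%, which is 0.352 of the starting value. The ATP synthase rows, here with atp5s and atp5sl, ended at 0.458 of their starting share, complex I subunits at 0.534, complex II at 0.555 and complex III at 0.631. In the polyA+ libraries of Series 3 the ATP synthase share at 9.0 hpf was 3.84 times that at 0 hpf, and the complex IV share was 2.73 times as high. Complex I ended at 1.18 times its first share. Complexes II and III ended below their first shares, at 0.515 and 0.880. These sums mostly follow a few abundant rows. At 0 hpf in Series 3 polyA+, uqcrfs1 and uqcr11 had 8650 and 2178 counts, and cyc1, next in complex III, had 290. In complex II, sdhd and sdha had 2035 and 1726 and sdhc had 139. At 9.0 hpf atp5b, atp5g3, atp5o and atp5c1 had 3172, 1770, 1236 and 1019 counts, the most among the ATP synthase rows.

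Does the total RNA of these genes change over the first 8 hours? Over 0 to 8 hpf the Ribo-Zero slope, in log2 units per hour relative to all genes (trimmed-mean scaling), was below 0 for 72 of the 75 rows with enough counts to be tested. It passed the test downward for 24 of them, which is 32.0%, and upward for none (edgeR quasi-likelihood, Benjamini-Hochberg adjusted p under 0.05). Of all 11154 rows tested, 2.23% were called lower and 2.58% higher. The median slope was -0.10 for the oxidative phosphorylation rows and 0.00 for all rows. The slope rests on the 9 Ribo-Zero libraries, in a fit of 18 libraries that shares 1 estimate of spread with the polyA+ libraries of the same RNA and treats the paired libraries as independent. Fitted to the 9 Ribo-Zero libraries alone, which was added after the data had been seen, edgeR called 52 of 76 rows lower and none higher, against 18.4% and 19.6% of all rows, and the 24 were among the 52. The fit of 18 libraries was also added after the separate windows had been examined, in which the median slopes of the rows were -0.14 (0 to 3 hpf) and -0.15 (5 to 8 hpf).

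By complex, the fall in Ribo-Zero was called for 7 of 11 complex IV subunits tested, 6 of 9 Fo and stalk subunits of the ATP synthase, 2 of its 4 F1 subunits, 7 of 25 accessory and 1 of 7 core subunits of complex I, and 1 of 5 supernumerary subunits of complex III. None of the 4 complex II subunits and neither catalytic subunit of complex III passed. Total RNA for uqcr10, a small subunit of complex III, was 490 normalised reads at 0 hpf, with a median of 248 and a lowest value of 71.3 at 8 hpf. Its slope was -0.31 ± 0.07 (SE; 9 Ribo-Zero libraries in the fit of 18; edgeR adjusted p = 0.0118). For cox7b, a small subunit of cytochrome oxidase, Ribo-Zero values had a highest value of 466 at 0 hpf, a median of 191 and a lowest of 77.8 at 8 hpf. Its slope was also -0.31, ± 0.08 (edgeR adjusted p = 0.0285).

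The accessory complex I subunit ndufb1 had 176 normalised reads at 0 hpf in Ribo-Zero. Its median was 51.2 and its lowest value 25.4, at 6 hpf (slope -0.27 ± 0.07, edgeR adjusted p = 0.0269). From 3 hpf on it had 14 Ribo-Zero counts or fewer in each library. For atp5j2, the f subunit of the ATP synthase, the values were 363 at 0 hpf, 158 as the median and 64.8 at 8 hpf (slope -0.25 ± 0.06, edgeR adjusted p = 0.0237). In all 4 genes the earliest library was the highest. The lowest was that of 8 hpf for uqcr10, cox7b and atp5j2 and that of 6 hpf for ndufb1. Among the 10 well-known subunits given in every comparison (ndufs1, ndufv1, sdha, sdhb, cyc1, uqcrfs1, cox4i1, cox5a, atp5a1 and atp5b), cox4i1 fell by 0.16 ± 0.03 and cox5a by 0.14 ± 0.03 per hour on the log2 scale (edgeR adjusted p = 0.00999 and 0.00938). The remaining 8 were not called. Of these, cyc1, cytochrome c1 of complex III, had 641 to 1044 normalised reads with the highest value at 8 hpf (slope 0.05 ± 0.04).

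The count of 24 depended on the end hours. Leaving out both 8 hpf libraries left 10 calls, leaving out those of 7 hpf left 13 and leaving out those of 0 hpf left 14. The calls of cox7b and ndufb1 were each lost without the libraries of any 1 of 6 hours, that of atp5j2 without those of 0, 1 or 8 hpf and that of uqcr10 without those of 7 or 8 hpf. The Ribo-Zero totals of 7 and 8 hpf, 5326857 and 5435207 counts, were the lowest of the 9. Ribosomal reads made up 29.1% of the 8 hpf library, 27.3% and 35.03% of those of 2 and 3 hpf and between 4.31% and 11.7% of the other 6, which left 3851017 gene counts at 8 hpf, the fewest. The part of depth and of ribosomal reads in the result was not tested. In the windows alone, edgeR called 0 of 76 rows at 0 to 3 hpf and 0 of 75 at 5 to 8 hpf, and so did DESeq2. At an unadjusted p under 0.05 there were 10 and 6 rows. The share of all rows at that unadjusted threshold is not given here, so no excess can be read from these counts. At the adjusted threshold the background called by edgeR was 0% in both directions at 0 to 3 hpf, and 1.85% higher and 0.158% lower at 5 to 8 hpf.

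**Figure D2:**
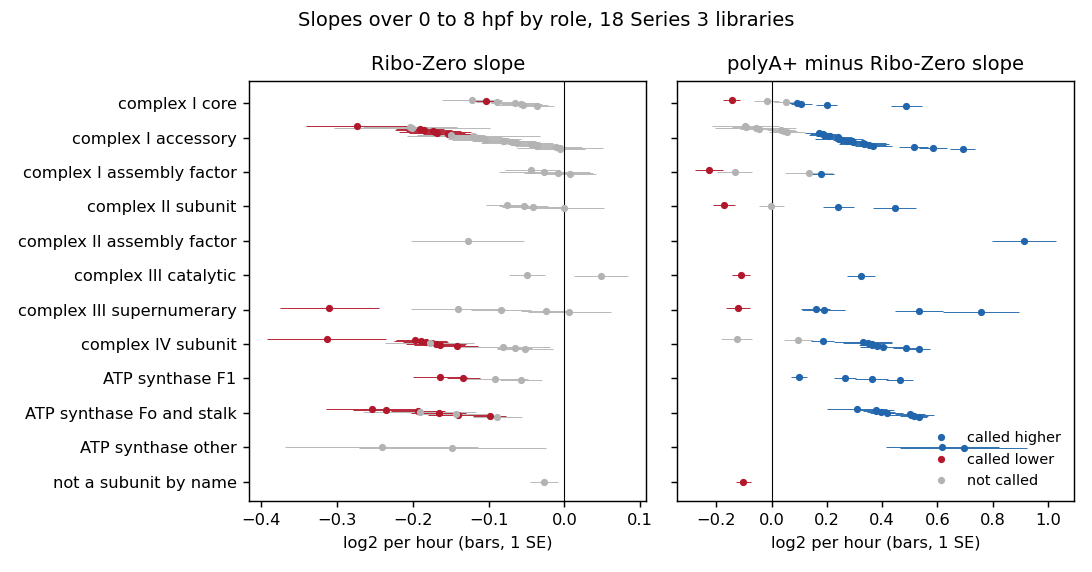
Slopes over 0 to 8 hpf by role of the gene, from 1 fit of 18 Series 3 libraries. The x axis is log2 per hour, left for Ribo-Zero and right for the polyA+ slope minus the Ribo-Zero slope; each point is 1 gene with 1 SE and colours give the call. On the left 24 of 75 points are called lower and none higher, and on the right 55 are called higher and 6 lower.

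The comparison of both library types asks whether a gene's place in the polyA+ fraction changed apart from its total RNA. At 0 hpf the median ratio of polyA+ to Ribo-Zero normalised reads was 0.434 over the 75 rows and 0.425 over all 11154 rows. By 3 hpf it was 1.10 against 0.544, and by 8 hpf 2.14 against 0.535. The oxidative phosphorylation median was thus 1.02 times that of all rows at 0 hpf and 4.00 times at 8 hpf. The number of rows with a ratio above 1 was 25 at 0 hpf, 39 at 3 hpf, 47 at 5 hpf and 65 at 8 hpf. These were 33.3%, 52%, 62.7% and 86.7% of the 75 rows, against 30.0%, 32.4%, 36.6% and 30.4% of all rows.

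**Figure D3:**
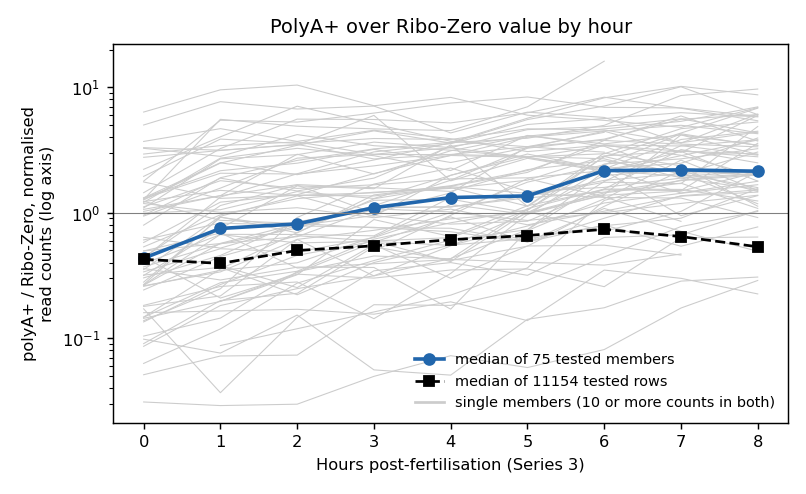
Ratio of polyA+ to Ribo-Zero normalised read counts (y axis, log scale) at the 9 whole hours of Series 3. Grey lines are single genes, the blue line is the median of 75 oxidative phosphorylation rows and the dashed line the median of 11154 rows. The blue median goes from 0.434 to 2.14 while the dashed one stays between 0.394 and 0.737.

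Over 0 to 8 hpf the polyA+ slope exceeded the Ribo-Zero slope in 55 of the 75 rows, 73.3%, and was below it in 6, or 8.0% (edgeR quasi-likelihood, adjusted p under 0.05). Of all rows tested, 28.5% were called higher and 27.3% lower. The median difference was 0.26 log2 per hour, against 0.00 over all rows. With each hour as a block, since both libraries of an hour come from 1 RNA, 52 were called higher and 6 lower. Of the 24 rows that fell in Ribo-Zero, 22 were among the 55. Both slopes come from the same libraries, so these counts are not independent of each other. The difference subtracts the Ribo-Zero slope, so a low Ribo-Zero slope by itself favours a call of higher. The matching share over all rows is not given here, and no link can be read from this overlap.

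All 15 rows with an ATP synthase symbol, atp5s and atp5sl included, were among the 55. So were 9 of 11 complex IV subunits, 18 of 25 accessory and 4 of 7 core subunits of complex I. PolyA+ counts of atp5sl were at most 10 in any Series 3 library. Those of uqcrc2, also among the 55, were at most 6. Both rows passed the count filter mainly through Ribo-Zero, and their polyA+ slopes rest on counts near 0. For ndufa5, an accessory complex I subunit, polyA+ values ran from 31.7 at 0 hpf to a highest value of 1181 at 8.0 hpf, with a median of 371. Its Ribo-Zero values lay between 311 and 532. The slopes differed by 0.69 ± 0.04 log2 per hour (edgeR adjusted p = 2.73e-09). PolyA+ and Ribo-Zero ranges of this gene overlapped, with polyA+ the lower at first and the higher later.

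Another accessory subunit, ndufb8, had polyA+ values of 90.8 at 0 hpf and 1042 at 7.0 hpf, while Ribo-Zero gave 875 at 0 hpf and 318 at 8 hpf. The slope difference was 0.59 ± 0.05 (edgeR adjusted p = 7.92e-08). For sdhaf2, the factor that attaches FAD to the flavoprotein of complex II, the 4 polyA+ libraries of 0 to 3 hpf held 16 counts in all and the Ribo-Zero libraries 319. At 5 to 8 hpf they held 186 and 141. The ratio of Ribo-Zero to polyA+ depth-scaled counts was 27.6 early (95% exact interval 16.7 to 48.9) and 0.860 late (0.686 to 1.08). Its slope difference, 0.91 ± 0.12, was the largest of the named rows (edgeR adjusted p = 4.96e-06).

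Against these stood 6 rows whose polyA+ slope was the lower one. They were ndufv1, sdhd, uqcrfs1, uqcr11, the assembly factor ndufaf4 and cox4nb. Under total-count scaling only ndufv1 and ndufaf4 of these were still called, and the other 4 were lost. PolyA+ values of ndufv1, the NADH-binding subunit of complex I, had a highest value of 11925 at 0.5 hpf, a median of 7172 and a lowest of 3476 at 9.0 hpf. Ribo-Zero values of the gene lay between 1840 and 2774. The slopes differed by -0.15 ± 0.03 (edgeR adjusted p = 0.000786). For sdhd, a membrane anchor of complex II, polyA+ values went from 2934 at 0 hpf to 599 at 9.0 hpf, and Ribo-Zero from 1000 to 421. The difference was -0.17 ± 0.04 (edgeR adjusted p = 0.00119).

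The slope difference of ndufaf4 was -0.23 ± 0.05 (edgeR adjusted p = 0.000923), with polyA+ values of 255 to 1054 and Ribo-Zero values of 232 to 328. For uqcr11, a small subunit of complex III, it was -0.12 ± 0.04 (edgeR adjusted p = 0.0267), and with the hour as a block the adjusted p was 0.0583. It was also lost without the libraries of 1, 2, 6 or 7 hpf. The Rieske iron-sulphur protein of complex III, uqcrfs1, differed by -0.11 ± 0.03 (edgeR adjusted p = 0.00826). At 0 hpf these 6 rows had polyA+ to Ribo-Zero ratios between 1.76 (cox4nb) and 6.34 (uqcr11).

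**Figure D4:**
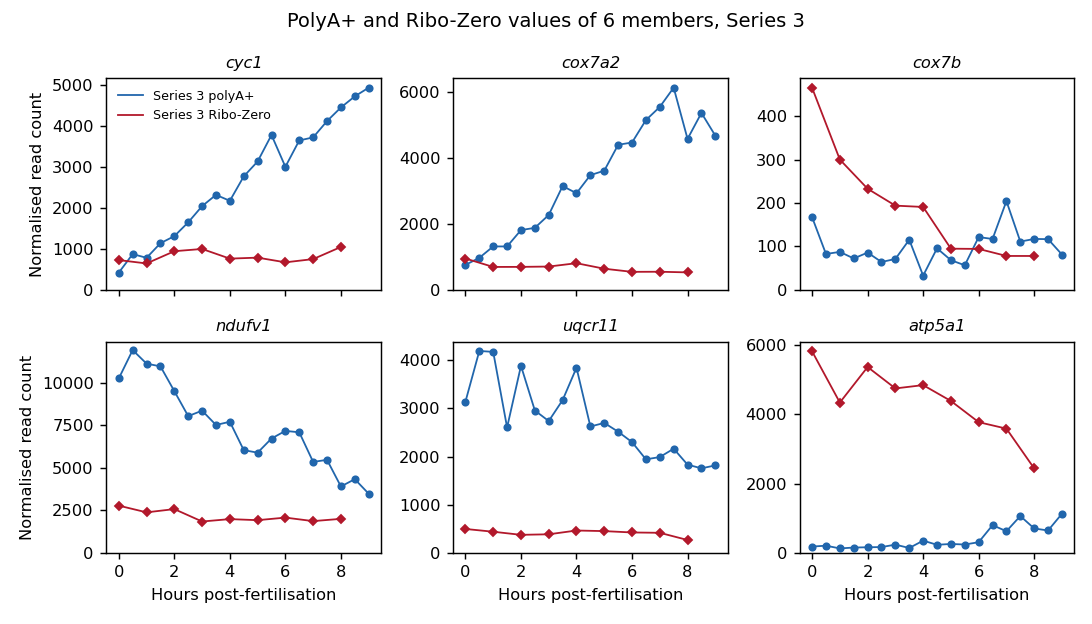
Normalised read counts of 6 genes in Series 3 against hours post-fertilisation; blue circles are polyA+ and red diamonds Ribo-Zero libraries, 1 library a point. In polyA+, cyc1 goes from 418 to 4932 while its Ribo-Zero values stay between 641 and 1044, and ndufv1 starts at 10259 and ends at 3476. The atp5a1 Ribo-Zero values lie above its polyA+ values at every hour.

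Within the first 3 hours the difference between library types already went the same way, but on less firm ground. At 0 to 3 hpf, 17 of 76 rows had a higher polyA+ slope and none a lower one, against 9.5% and 8.27% of all rows (edgeR, 8 libraries). With the hour as a block, which leaves few degrees of freedom, edgeR called no row here and none of the 11521 rows anywhere. At an unadjusted p under 0.05 it gave 23 rows. DESeq2 called 16 higher and 1 lower. The matching shares of all rows are not given here, so no excess can be read from these counts. The median difference over the rows was 0.30 log2 per hour without the block and 0.31 with it. Single libraries moved the count. Leaving out the Ribo-Zero library of 0, 1, 2 or 3 hpf left 0, 2, 1 and 0 calls, and leaving out the polyA+ library of 1, 2 or 3 hpf gave 31, 11 and 7.

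Among the named rows the largest early difference was that of ndufb10, an accessory subunit of complex I. PolyA+ values were 154 at 0 hpf, 245 at 1.0 hpf, 811 at 2.0 hpf and 1299 at 3.0 hpf, and Ribo-Zero values at those hours were 1120, 990, 887 and 768. The ranges overlapped, with opposite order in time. Its slope difference was 1.17 ± 0.14 (edgeR adjusted p = 0.00696; 0.0614 with the block). Those of ndufs5 and ndufa5, also accessory subunits, were 0.92 ± 0.18 and 0.83 ± 0.15 (edgeR adjusted p = 0.019 and 0.0169; 0.0627 and 0.0878 with the block). For atp5g3, which codes for the c subunit of the ATP synthase ring, it was 0.80 ± 0.13 (edgeR adjusted p = 0.0116; 0.069 with the block).

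Across and after the mid-blastula transition, from 5 to 8 hpf, 9 of 75 rows had the higher polyA+ slope and none the lower, against 3.83% and 1.65% of all rows (edgeR, 8 libraries). The block left the number at 9, and the share of all rows under it is not given here. Total-count scaling, which moved the median of all rows by -0.14, left 1 call, against 0.923% of all rows called higher. Leaving out any 1 of the 4 Ribo-Zero libraries left none, and leaving out the polyA+ library of 8 hpf left 4. Total RNA of atp5a1, the catalytic-ring alpha subunit of the ATP synthase, was 4386, 3774, 3586 and 2438 normalised reads at 5, 6, 7 and 8 hpf. Its polyA+ values were 255, 306, 623 and 702. The slopes differed by 0.94 ± 0.14 (edgeR adjusted p = 0.0155). No polyA+ value of this gene reached its lowest Ribo-Zero value.

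The slope difference of ndufa5 in this window was 0.89 ± 0.14 (edgeR adjusted p = 0.0189). For atp5f1, the b subunit of the stalk, it was 0.83 ± 0.15 (edgeR adjusted p = 0.0234). For cox5b.1, a nuclear subunit of cytochrome oxidase, it was 0.97 ± 0.21 (edgeR adjusted p = 0.0366; 0.0505 with the block). The flavoprotein sdha and cox4i1 also passed, with 0.44 ± 0.09 and 0.46 ± 0.10.

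Levels, taken as the polyA+ against Ribo-Zero contrast, moved the same way. At 0 to 3 hpf 33 of 76 rows were higher in polyA+ and 19 lower, against 33.5% and 37.3% of all rows (edgeR). The median was 0.32 log2, against -0.24 over all rows. At 5 to 8 hpf 58 of 75 were higher and 4 lower, against 32.5% and 33.5%, and the median was 1.60 against 0.04. Total-count scaling shifted the median of all rows by -0.83 and -0.57 in the 2 windows and gave 25 higher and 31 lower early, and 47 higher and 7 lower late. Of all rows it called 20.8% higher and 53.5% lower early, and 19.8% and 43.2% late. Relative to the median of all rows, the rows' median was 0.56 early and 1.56 late with trimmed-mean scaling, and 0.57 and 1.55 with total-count scaling. Without the Ribo-Zero library of 0 hpf, 12 rows were lower early. Among the 19 lower rows, atp5sl, ndufc2 and uqcrc2 held 4, 5 and 2 early polyA+ counts in all. They passed the count filter through Ribo-Zero alone. These contrasts rest on the same libraries as the slope differences.

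The highest early contrast was that of uqcr11, at 3140, 4174, 3884 and 2737 normalised reads in polyA+ and 495, 437, 373 and 384 in Ribo-Zero, a log2 difference of 3.89 ± 0.22 (edgeR adjusted p = 1.99e-06). Next came ndufb5 with 3.56 ± 0.20, ndufc1 with 3.04 ± 0.37 and cox6b1 with 2.99 ± 0.29 (edgeR adjusted p = 1.99e-06, 0.000104 and 2.76e-05). All of the latter 3 are accessory or supernumerary subunits, and in each the groups did not overlap.

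At the other end, atp5a1 had 180, 126, 160 and 235 normalised reads in polyA+ at 0, 1, 2 and 3 hpf and 5819, 4340, 5367 and 4748 in Ribo-Zero. Its log2 difference was -4.03 ± 0.21 (edgeR adjusted p = 1.43e-06). The stalk subunit atp5f1 was at -2.70 ± 0.30 (edgeR adjusted p = 6.19e-05). By 5 to 8 hpf the difference of atp5a1 was -2.26 ± 0.43 (edgeR adjusted p = 0.00142), and that of atp5f1 was no longer called. The beta subunit atp5b, which pairs with the alpha subunit in the F1 ring, had a log2 difference of 0.21 ± 0.28 early, which was not called, and 1.33 ± 0.14 late (edgeR adjusted p = 3.87e-05). The low polyA+ values of atp5a1 were those of Series 3. At 3.0 hpf atp5a1 had 73 of 7744403 polyA+ gene counts there. In Series 1 it had 712 of 20475779 and in Series 2 884 of 31892815. Series 1 and 2 have no Ribo-Zero libraries.

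The most uneven row was uqcrc2, a core protein of complex III. In Series 3 its polyA+ values lay between 0 and 31.9 normalised reads in all 19 libraries, and its Ribo-Zero values between 161 and 483. The 4 early polyA+ libraries held 2 counts against 552 in Ribo-Zero, a depth-scaled ratio of 382 (95% exact interval 105 to 3164, counting error only). At 5 to 8 hpf it was 16 against 239 counts, a ratio of 16.9 (10.2 to 30.1). In Series 1 and 2, by contrast, polyA+ libraries gave 12.7 normalised reads at 0 hpf, 337 at 3.0 hpf and 1421 at 9.0 hpf. Series 3 differed from Series 1 and 2 in clutch, colony, kit, sequencer and read length at once, and these cannot be told apart. Its partner uqcrc1 also lay lower in polyA+ than in Ribo-Zero, with 73.5 against 750 normalised reads at 0 hpf and 197 against 642 at 8 hpf (late log2 difference -1.54 ± 0.33, edgeR adjusted p = 0.00261). For uqcrc1 too the polyA+ level differed between series. At 3.0 hpf it had 14 of 7744403 polyA+ gene counts in Series 3. In Series 1 it had 511 of 20475779 and in Series 2 182 of 31892815.

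Late in Series 3 the highest rows were ndufb1 at 3.74 ± 0.29, cox7a2 at 3.61 ± 0.21, cox6b1 at 3.37 ± 0.15 and ndufa2 at 3.37 ± 0.28 (edgeR adjusted p = 6.09e-06, 1.66e-06, 5.94e-07 and 1e-05). The polyA+ level of ndufb1 was not shared by Series 2. In Series 3 it had 87 of 7323525 polyA+ gene counts at 5.0 hpf and 52 of 4678116 at 8.0 hpf. In Series 2 it had 10 of 27847933 and 13 of 25716643 at those hours. Ribo-Zero counts of ndufb1 at 5, 6, 7 and 8 hpf were only 13, 10, 8 and 6. For cox7a2, a subunit of cytochrome oxidase, the polyA+ values at 5, 6, 7 and 8 hpf were 3607, 4462, 5540 and 4571, and the Ribo-Zero values 636, 542, 545 and 525. Of the 10 well-known subunits 7 were higher in polyA+ late, 1 (atp5a1) was lower and 2 (ndufs1 and sdhb) were not called. Early, 4 were higher, 2 (atp5a1 and cox5a) were lower and 4 were not called. The assembly factor ndufaf3 stayed low in Series 3 polyA+, at -1.45 ± 0.28 late (edgeR adjusted p = 0.00141). At 5.0 hpf it had 21 of 7323525 polyA+ gene counts there and 537 of 27847933 in Series 2.

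In the polyA+ libraries of the first 3 hours both clutches had rises and falls. In Series 1, 25 of 76 rows rose and 11 fell from 0 to 3.0 hpf, against 31.9% and 29.9% of all rows (edgeR, 7 libraries). The share that rose, 32.9%, was near the background, and the share that fell, 14.5%, was below it. In Series 3, 11 of 71 rose and 7 fell, against 17.4% and 17%. Total-count scaling moved the median of all rows by 0.23 and 0.12 log2 per hour and gave 39 up and 4 down in Series 1, and 20 up and 1 down in Series 3. Of all rows it called 44% up and 12.2% down in Series 1, and 25.1% and 8.01% in Series 3. Leaving out the 3.0 hpf library left 16 rises in Series 1, and in Series 3 it left 7 rises and 2 falls. The Series 3 falls were 13 without the 0 hpf library, 4 without that of 0.5 hpf and 3 without that of 2.5 hpf. In Series 3, a contrast of the last 2 against the first 2 libraries called none in either direction.

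The clutches, which share no library, had some calls in common. The same 8 rows rose in both: atp5b, atp5g3, cox5a, cyc1, ndufaf1, ndufb8, ndufb10 and ndufs5. They are 32.0% of the rises in Series 1 and 72.7% of those in Series 3, where over all rows the shared rises were 37.4% and 79.7%. The same 4 fell in both, cox4nb, ndufv1, sdha and uqcrfs1, which are 36.4% and 57.1% of the falls, against 40.9% and 83.5% over all rows. Total-count scaling ended all 4 of these calls in Series 3. None of the oxidative phosphorylation rows rose in one clutch and fell in the other. Opposite calls were rare over all rows too, at 16 of 3687 Series 1 rises and 10 of 3449 Series 1 falls.

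In Series 1, ndufb10 had a lowest value of 244 normalised reads at 0 hpf, a median of 1932 and a highest of 2600 at 2.5 hpf, and its slope was 1.00 ± 0.19 log2 per hour (edgeR adjusted p = 0.00129). In Series 3 the 7 polyA+ values ran from 154 to 1299 (slope 0.92 ± 0.10, edgeR adjusted p = 0.000788). Other rises in Series 1 were those of uqcrc2 (1.46 ± 0.14, edgeR adjusted p = 4.04e-05), ndufs5 (1.02 ± 0.18, 0.000744) and cox5a (0.97 ± 0.10, 5.4e-05). In Series 3, ndufs5 rose by 0.73 ± 0.14, cox5b.1 by 0.57 ± 0.18 and atp5g3 by 0.54 ± 0.11 (edgeR adjusted p = 0.00546, 0.0358 and 0.00659). The call of cox5b.1 was lost in 6 of 7 fits that left out 1 library. Against 0 hpf, atp5b was 4.66 times as high at 3.0 hpf in Series 1 and 3.35 times in Series 3.

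Falling rows in Series 1 were led by uqcr11, with 3566 normalised reads at 0 hpf, a median of 1207 and 680 at 3.0 hpf (slope -0.89 ± 0.09, edgeR adjusted p = 5.08e-05). Then came ndufaf4 (-0.68 ± 0.19, edgeR adjusted p = 0.0107), ndufb5 (-0.64 ± 0.14, 0.00226) and ndufv1 (-0.58 ± 0.08, 0.000175). The fall of ndufaf4 was lost without the 0.5 hpf or the 3.0 hpf library. Among rows with a mean of at least 100 normalised reads, the steepest falls called in Series 3 were -0.41 ± 0.09 for cox5b.2 (edgeR adjusted p = 0.00811), -0.29 ± 0.07 for sdha (0.0116), -0.29 ± 0.08 for ndufv1 (0.0229) and -0.28 ± 0.06 for uqcrfs1 (0.00803). Below that level ndufs6, at -1.01 ± 0.33, and cox7b, at -0.46 ± 0.16, were also called (edgeR adjusted p = 0.0426 and 0.0495). Under total-count scaling sdha, ndufv1 and uqcrfs1 were not called in Series 3, nor were sdha and ndufv1 without the 3.0 hpf library.

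Only 1 of 73 rows passed the test of a different slope between the clutches, against 3.53% of all rows called higher and 3.95% lower (edgeR, 14 libraries). This was uqcr11, whose slope was higher in Series 3 by 0.66 ± 0.14 (edgeR adjusted p = 0.0204). Its 7 early values in Series 3 lay between 2604 and 4193 normalised reads, with no steady order in time. The call was not kept under total-count scaling, with Series 3 hours multiplied by 0.8, or without the Series 1 library of 3.0 hpf or the Series 3 library of 0 hpf. For cox5a the difference was -0.46 ± 0.13, with an adjusted p of 0.0517.

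At 2.5 and 3.0 hpf, Series 1 and Series 2 have libraries of 2 clutches in 1 table. Series 2 was higher for 16 of 76 rows and lower for 29, against 25.8% and 26.3% of all rows (edgeR, 4 libraries). The replicate block by hour gave 18 and 35, and the shares of all rows under it are not given here. Total-count scaling, which moved the median of all rows by 0.18, gave 17 and 20, against 31.1% and 20.6% of all rows. Without the Series 2 library of 2.5 hpf there were 6 and 15, and without that of 3.0 hpf 7 and 15. Some rows differed by a large factor. The complex I subunit ndufb9 had 5893 and 3498 normalised reads in Series 1 and 690 and 614 in Series 2, a log2 difference of -3.05 ± 0.29 (edgeR adjusted p = 0.000156). For ndufb10 it was -2.50 ± 0.15, for uqcrc1 -2.35 ± 0.18 and for ndufab1, the mitochondrial acyl carrier protein, -1.80 ± 0.15 (edgeR adjusted p = 4.18e-05, 7.53e-05 and 8.83e-05).

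In the other direction, ndufa3 had 39.4 and 34.2 normalised reads in Series 1 and 477 and 439 in Series 2 (3.45 ± 0.24, edgeR adjusted p = 5.97e-05). Among other rows with a mean of at least 100 normalised reads came atp5g3 at 1.35 ± 0.14, cox7c at 0.89 ± 0.21 and uqcrfs1 at 0.86 ± 0.17 (edgeR adjusted p = 0.000236, 0.00862 and 0.00385). In each of these rows both libraries of one clutch lay apart from both of the other. With 1 clutch a series, clutch and library batch cannot be told apart.

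After the mid-blastula transition most rows rose in polyA+ RNA of Series 2. From 5.0 to 9.5 hpf, 54 of 77 rows rose, 70.1%, and 12 fell, 15.6%, against 35.4% and 38% of all rows (edgeR, 11 libraries). The median slope was 0.21 log2 per hour, against -0.01 over all rows. Total-count scaling moved the median of all rows by -0.12 and gave 30 rises and 16 falls, against 24.6% and 47% of all rows. Relative to all rows the median was 0.22 with trimmed-mean and 0.23 with total-count scaling. Of the 10 well-known subunits 9 rose and sdhb was not called. The rises of ndufs1, ndufv1, sdha and atp5b were lost under total-count scaling.

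With trimmed-mean scaling all 13 F1, Fo and stalk subunits of the ATP synthase rose in Series 2, as did all 7 complex III subunits and 10 of 11 complex IV subunits. Total-count scaling ended the rises of atp5b, atp5g1, atp5g3, atp5h, atp5j and atp5l, of uqcr11 and uqcrc2, and of cox7a2l. The rows atp5s and atp5sl, which bear an ATP synthase symbol, fell. Of the 4 complex II subunits, sdhc and sdhd fell, sdha rose and sdhb was not called. Of the 4 complex I assembly factors 2 fell and none rose, while the complex II factor sdhaf2 rose. As 38% of all rows fell, no excess of falls can be read from these small groups. The largest rise among the named rows was that of ndufc2, an accessory complex I subunit, with at most 10.4 normalised reads up to 5.5 hpf in Series 2 and 524 at 9.5 hpf (slope 1.56 ± 0.11, edgeR adjusted p = 8.61e-08). Next was cox7b, whose 17 Series 2 values had a lowest of 44.5 at 3.5 hpf, a median of 170 and a highest of 886 at 9.5 hpf (0.84 ± 0.09, edgeR adjusted p = 4.05e-06). Values of cox7b from 8.0 hpf on, 483 or more, lay above all earlier ones.

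For uqcr10 the Series 2 values had a lowest of 25.2 at 3.5 hpf and a highest of 507 at 9.5 hpf (slope 0.79 ± 0.06, edgeR adjusted p = 1.69e-07). The f subunit atp5j2 rose by 0.75 ± 0.11 (edgeR adjusted p = 5.97e-05). Among rows with a mean of at least 100 normalised reads, the largest falls were those of cox5b.2 and sdhc, each at -0.40 ± 0.05 (edgeR adjusted p = 9.68e-06 and 1.51e-05), with sdhd at -0.37 ± 0.10 and ndufaf1 at -0.32 ± 0.06 (0.00352 and 0.000575). Of these, sdhc and sdhd code for the membrane anchors of complex II and ndufaf1 for a complex I assembly factor.

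In Series 3 the polyA+ calls from 6.0 to 9.0 hpf were fewer, 11 rises and 2 falls among 73 rows, against 16.8% and 13.9% of all rows (edgeR, 7 libraries). They depended on the scaling. Total-count scaling moved the median of all rows by -0.15 and gave 1 rise and 5 falls, against 11.3% and 27.6% of all rows. Without the 6.0, 6.5, 7.0, 8.0 or 8.5 hpf library 2, 5, 6, 5 and 3 rises were left. Without the 6.5 or 9.0 hpf library 1 fall was left, and ndufv1 was the fall lost. Relative to all rows the median was 0.09 under both scalings. Series 3 developed more slowly, and with its hours multiplied by 0.8 this window ends well before that of Series 2. The calls of the 2 series therefore cover unequal stretches of development, and stage and clutch cannot be told apart in them. All 11 rises were also rises in Series 2, of which they are 20.4%, while over all rows the shared rises were 77.4% of those in Series 3 and 28.1% of those in Series 2. The fall of sdhd was shared, and ndufv1, which rose in Series 2, fell in Series 3 (0.12 ± 0.04 and -0.21 ± 0.06, edgeR adjusted p = 0.0117 and 0.0165). Under total-count scaling the Series 2 rise of ndufv1 was lost and its Series 3 fall was kept. The difference between these slopes was not tested.

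The Series 3 rise of cyc1 was 0.37 ± 0.06 (edgeR adjusted p = 0.00126), and it was kept in every fit that left out 1 library and under total-count scaling. Its 7 polyA+ values from 6.0 to 9.0 hpf lay between 3001 and 4932. The rises of uqcr10 (0.50 ± 0.14, edgeR adjusted p = 0.0202), atp5a1 (0.48 ± 0.16, 0.0422) and cox5b.1 (0.39 ± 0.13, 0.0481) were each lost without some single libraries and under total-count scaling. The fall of sdhd was -0.45 ± 0.10 (edgeR adjusted p = 0.00601), and its values were 1690 at 6.0 hpf, 466 at 8.5 hpf and 599 at 9.0 hpf.

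The only repeated libraries of 1 time point in a clutch, pairs at 4.5 and 6.5 hpf in Series 2, gave 5 rows higher and 2 lower at 6.5 hpf of 77, against 10.3% and 12.1% of all rows (edgeR, 4 libraries). The value of sdhd was 1267 and 1608 at 4.5 hpf and 442 and 593 at 6.5 hpf (log2 difference -1.48 ± 0.21, edgeR adjusted p = 0.000846). It was kept without each of the 4 libraries. That of cox5b.2, -0.65 ± 0.19 (edgeR adjusted p = 0.0363), was lost without any 1 of them. Leaving out 1 library gave 1 to 13 rows higher and 1 lower. Among rows with a mean of at least 100 normalised reads, uqcrc1 was higher at 0.89 ± 0.21, cox6a1 at 0.84 ± 0.22 and atp5a1 at 0.65 ± 0.15 (edgeR adjusted p = 0.013, 0.0208 and 0.0108).

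**Figure D5:**
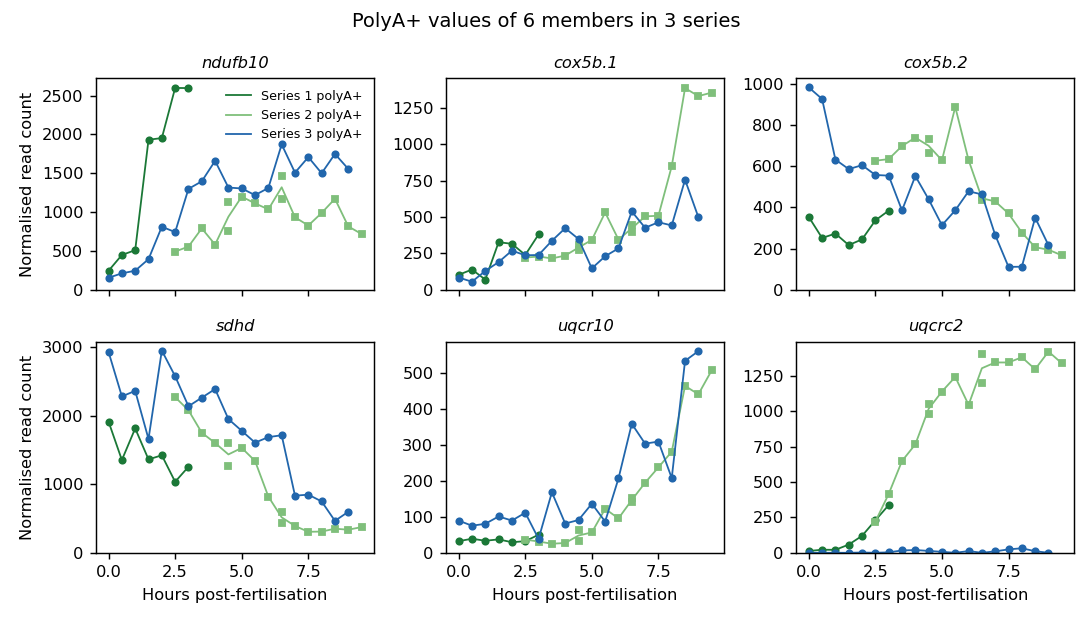
PolyA+ normalised read counts of 6 genes in Series 1, 2 and 3 against hours post-fertilisation; points are libraries and lines join the mean at each time. The sdhd points go from 2273 to 375 in Series 2 and from 2934 to 599 in Series 3, and uqcrc2 stays at or below 31.9 in Series 3 while it reaches 1421 in Series 2.

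The cox5b copies, a pair of rows for the same cytochrome oxidase subunit that was singled out after its values were seen, moved in opposite directions in polyA+ RNA from 5.0 to 9.5 hpf in Series 2, where cox5b.1 rose by 0.61 ± 0.08 (edgeR adjusted p = 1.82e-05) and cox5b.2 fell. In Series 2 polyA+ libraries the ratio of cox5b.1 to cox5b.2 was 0.352 at 2.5 hpf and 8.10 at 9.5 hpf, with values of 221 and 1354 for cox5b.1 and 627 and 167 for cox5b.2. In Series 3 polyA+ libraries it was 0.0850 at 0 hpf and 2.30 at 9.0 hpf. The Series 1 ratio was already above 1 early, at 0.290 at 0 hpf, 1.50 at 1.5 hpf, 1.29 at 2.0 hpf and 0.709 at 2.5 hpf. At 3.0 hpf it was 0.987 in Series 1 and 0.359 in Series 2. In the 9 Ribo-Zero libraries it lay between 0.166 and 0.331. Reads that matched more than 1 gene were discarded when the counts were made, so near-identical stretches of such copies are not counted. The c subunit rows atp5g1 and atp5g3 both rose from 5.0 to 9.5 hpf in Series 2, by 0.23 ± 0.06 and 0.27 ± 0.08 (edgeR adjusted p = 0.00268 and 0.0124). Neither rise was kept under total-count scaling. The ratio of atp5g3 to atp5g1 in Ribo-Zero libraries lay between 2.50 and 4.87.

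Lists of related genes were counted in the same way. Over 0 to 8 hpf the Ribo-Zero slope was called lower for 2 of 8 assembly factors of complexes III and V (atpif1, the inhibitor of the ATP synthase, and tmem70), for 1 of 11 genes of mitochondrial DNA and RNA maintenance (tfb2m) and for 1 of 14 of glycolysis (ldha). It was called for none of 11 cytochrome oxidase assembly genes, 9 electron carriers and exchangers, 14 genes of the tricarboxylic acid cycle and 9 regulators of respiratory genes. None was called higher. Of all rows 2.23% were called lower and 2.58% higher. The difference of polyA+ and Ribo-Zero slopes was higher for 9 of 11 maintenance genes, 10 of 14 glycolysis genes, 9 of 14 cycle genes, 6 of 8 assembly factors of complexes III and V, 6 of 9 carriers and exchangers and 5 of 11 cytochrome oxidase assembly genes, and lower for 0, 1, 3, 0, 0 and 2, against 28.5% and 27.3% of all rows. For tfam, the packaging and transcription factor of mitochondrial DNA, the difference was 0.38 ± 0.04 (edgeR adjusted p = 1.39e-06). Of 9 regulators 3 were higher (gabpa and gabpb1 among them) and 3 lower, among them ppargc1a and ppargc1b, coactivators of respiratory genes.

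After the mid-blastula transition in Series 2, from 5.0 to 9.5 hpf, 8 of 12 genes of mitochondrial DNA and RNA maintenance and 7 of 12 cytochrome oxidase assembly genes fell, and 2 rose in each list, against 38% of all rows that fell and 35.4% that rose. The same slope rose for 6 of 9 electron carriers and exchangers, of which none fell, and for 8 of 15 glycolysis genes, of which 4 fell. Of the cycle genes 5 rose and 6 fell, of the assembly factors of complexes III and V 2 rose and 3 fell, and of the regulators 2 rose and 2 fell. Differences between the lists were not tested. The medians were -0.20 for maintenance, -0.21 for oxidase assembly, 0.20 for carriers and 0.17 for glycolysis, against 0.21 for the oxidative phosphorylation rows.

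Across the 19 polyA+ libraries of Series 3, the mean log2 profile of 73 rows with enough reads was most like those of an unnamed row (Xetrov72039828, Pearson r = 0.983), ddx21 (0.978), pcna (0.978), ppia (0.978) and rnpep (0.977), among 10852 other rows compared. The 73 rows did not share 1 profile. Their own r with the mean, of which each is a part, ran from -0.790 (ndufb5) to 0.981 (cox7a2). All points come from the same libraries and share their depth and scaling, and the values are given as a description.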

How the data were processed

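RNA of pooled whole embryos was sequenced as polyA+ or ribosome-depleted (Ribo-Zero) libraries. The authors aligned reads with Bowtie 0.12.7, discarded reads that matched more than 1 gene, and deposited whole-number counts per gene. The deposited normalised values, a depth-scaled signal, are counts divided by the library total without ribosomal rows and multiplied by 25000000. Recomputed values differed from them by a relative 5.81e-07 at most.

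The 52 libraries were grouped by series, library type and hour, and every column was matched to its sample. Rows that name no gene (3 and 7 in the tables) were left out of the fits. Slopes in log2 per hour and contrasts were fitted to the counts with edgeR 4.0.16 (R 4.3.3) quasi-likelihood tests and trimmed-mean scaling, on rows with at least 10 counts in 2 to 9 libraries, by the size of the fit, with Benjamini-Hochberg adjustment over all rows tested and a threshold of 0.05. Alternatives were DESeq2 1.42.0, its size factors, total-count scaling, no filter, each library left out, the hour as a replicate block, end-point contrasts and Series 3 hours multiplied by 0.8. The 0 to 8 hpf fit of 18 libraries, and that of its 9 Ribo-Zero libraries alone, were added after the data had been seen. The fits were tested on simulated data. Tables and figures were made with Python 3.11.15, pandas 2.3.3, scipy 1.17.1 and matplotlib 3.10.9.

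PolyA+ and Ribo-Zero libraries of 1 hour come from 1 split RNA sample and are paired by the design. Correlations of their deviations from the library-type means were 0.0415 to 0.0632 at 0 to 3 hpf and 0.507 to 0.706 at 5 to 8 hpf. Between libraries of different hours they were -0.0892 to 0.0403 and -0.651 to 0.537. The late ranges overlap, so the late values do not separate the pairing from a shared course in time.

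The members and lists were chosen with earlier results of these data known. Named genes were, for each comparison, up to 4 called rises and 4 called falls of largest size among rows with a mean of at least 100 normalised reads, and 10 well-known subunits. Reads of near-identical copies may be undercounted. Of the 81 rows, 78 matched a RefSeq symbol. A planned search for promoter motifs was not run, and sequences were not used here.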

Additional observations from a re-analysis of the deposited data

Results flagged for a closer look

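The slope of uqcr11 over the first 3 hours differed between clutches by a test of the difference itself, higher in Series 3 than in Series 1 by 0.66 log2 per hour. The slope was -0.89 ± 0.09 in Series 1. This was 1 of 73 rows, against 3.53% of all rows called higher and 3.95% lower. The call was lost under total-count scaling and with Series 3 hours multiplied by 0.8. It was also lost without the Series 1 library of 3.0 hpf or the Series 3 library of 0 hpf. The part of clutch, frog colony, rate of development, library kit and sequencer in the slope difference cannot be told apart.

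The mitochondrial row, which no comparison above uses, reached 20255 normalised reads in the Ribo-Zero libraries. By hour from 0 to 8 hpf its values were 377, 243, 9587, 18528, 475, 297, 890, 695 and 20255. In the polyA+ libraries of Series 3 the row lay between 166 and 6668. The Ribo-Zero libraries of 2, 3 and 8 hpf therefore stood apart from the other 6, and what part this had in the slopes was not tested.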

How the results depend on the processing

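Of the counts recomputed without leaving out a library, 117 stayed within 1.5 times the reported count and 27 did not. Total-count scaling gave 39 rises and 4 falls in Series 1 (0 to 3 hpf), 20 and 1 in Series 3, 0 higher and 1 lower in the clutch difference, 1 higher in the 5 to 8 hpf slope difference, 31 and 7 lower in the early and late levels, 2 lower in the 0 to 8 hpf slope difference, 30 rises in Series 2 (5.0 to 9.5 hpf), and 1 rise and 5 falls in Series 3 (6.0 to 9.0 hpf). Under that scaling 0.641% of all rows were higher and 5.2% lower in the clutch difference. In the 0 to 8 hpf slope difference 20.3% of all rows were lower. End-point contrasts gave 0 and 0 in Series 3 early and 1 fall late. DESeq2 gave 2 lower in the clutch difference, 1 lower in the 0 to 3 hpf slope difference and 10 higher in Series 2 against Series 1. Its size factors gave 1 lower in the clutch difference and 10 higher in the 0 to 3 hpf slope difference. Without a filter there were 11 higher in that difference, 5 rises in Series 3 late and 10 at 6.5 against 4.5 hpf. The 9 Ribo-Zero libraries alone gave 52 falls over 0 to 8 hpf. The replicate block gave 0 in the 0 to 3 hpf slope difference, and Series 3 hours multiplied by 0.8 gave 0 in the clutch difference. Where no share of all rows under the same setting is given for a count of calls, no excess can be read from that count.

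Leaving out 1 library gave 16 to 26 rises in Series 1, 7 to 12 rises and 2 to 13 falls in Series 3 early, 0 to 3 higher and 0 to 1 lower in the clutch difference, 0 to 31 higher and 0 to 4 lower in the 0 to 3 hpf slope difference, 0 to 12 higher in that of 5 to 8 hpf, 12 to 20 lower in the early level, 2 to 10 rises and 1 to 2 falls in Series 3 late, 1 to 13 higher and 1 to 1 lower at 6.5 against 4.5 hpf, and 6 to 13 higher and 15 to 32 lower in Series 2 against Series 1. Leaving out both libraries of an hour gave 10 to 23 falls in Ribo-Zero over 0 to 8 hpf. Of 80 named results past the threshold, 47 were kept under all alternatives, 27 were lost without some library or hour, 22 under another setting, and none changed sign. The blocked fits changed no named call beyond those given beside their results.

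Each series is 1 clutch, so no test here speaks to other clutches. Series 3 is the shallower, and 3 counts there reach 19.5 normalised reads. No oxidative phosphorylation row was called in the Ribo-Zero windows of 4 hours.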
